A study of Homo sapiens with 6 samples.

Results

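DNA methylation was examined at 47 genes of the WNT pathway in Conventional and Reset cultures of the established human embryonic stem cell line H9. The genes were chosen by name, as 19 WNT ligands, 12 receptors (FZD1 to FZD10, LRP5 and LRP6), 8 secreted antagonists of the DKK and SFRP families, 3 genes of the destruction complex (AXIN1, AXIN2 and GSK3B) and 5 nuclear factors (CTNNB1, LEF1, TCF7, TCF7L1 and TCF7L2), out of 19812 protein-coding genes with a canonical transcript. The choice was made with earlier results of these data known. Methylation was measured by whole-genome bisulfite sequencing, in 3 libraries of Conventional and 3 libraries of Reset cells. Conventional cells grew in 20% KSR, a serum replacement, with 10 ng/ml bFGF. Reset cells were made from H9 carrying doxycycline-inducible NANOG and KLF2 transgenes, and after doxycycline was withdrawn they were kept in t2iL+Gö, which holds LIF, 1 μM of the MEK inhibitor PD0325901, 5 μM of the protein kinase C inhibitor Gö6983 and 1 μM of CHIR99021, an inhibitor of GSK3. Both kinds of cells grew on mouse embryonic fibroblast feeders in 5% oxygen. Transgenes, medium and cell state differed together between the groups, so their parts in a difference cannot be told apart, and both groups come from 1 cell line.

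WNT proteins are secreted ligands that bind frizzled receptors together with the co-receptors LRP5 and LRP6. Without a ligand, the destruction complex, a scaffold of axin that holds the kinase GSK3, marks β-catenin for degradation. With a ligand, or when GSK3 is inhibited, β-catenin, the product of CTNNB1, accumulates, enters the nucleus and acts through the DNA-binding TCF and LEF factors. In pluripotent cells TCF7L1 is known as a repressor of its targets, and AXIN2 is a widely used readout of the pathway.

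Levels of methylation are given as the share of calls in a region that were methylated, in percent, and each value after ± is the SD of 3 libraries. The 3 Conventional libraries held 91846988 to 97822789 calls at CpGs and the 3 Reset libraries 70186287 to 80042858, which is 2.51 to 3.49 calls for each of 27999103 CpGs of the reference. The level over all calls lay between 84.3 and 84.6% in the Conventional and between 29.5 and 30.3% in the Reset libraries, and every difference at a WNT gene stands against that fall. A level is an average over cells and alleles, so fewer methylated cells and less methylation per cell cannot be told apart. Where the promoters of pluripotency genes were looked at, SOX2 was at 1.34% ± 1.37 and 2.46% ± 0.629, NANOG at 6.52% ± 0.955 and 3.83% ± 0.872 and POU5F1 at 14.8% ± 5.94 and 2.68% ± 2.39 in Conventional and Reset cells. Methylation does not measure expression, so these values do not check the cell type by its transcripts. Promoters spanned 1000 bp upstream to 500 bp downstream of the canonical transcription start site (TSS), and gene bodies ran from the end of the promoter to the end of the transcript.

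Stretches of promoters that moved are first shown by sequence. Considered were up to 3 promoters with the largest rise and up to 3 with the largest fall, of at least 10 points. At DKK2, WNT10A and WNT8B, the 250 bases outside annotated exons with the largest difference in the direction of the promoter were taken from GRCh37. They were therefore picked on the values given with them. Capitals mark the CpGs, the sites whose methylation was measured, and each sequence reads 5′ to 3′ along the strand of its gene. No such stretch with enough calls was found at WNT8A. The last sequence lies directly upstream of an internal start site of WNT5A and was chosen after its values had been seen.
DKK2 (chr4:107957850-107958099, minus strand): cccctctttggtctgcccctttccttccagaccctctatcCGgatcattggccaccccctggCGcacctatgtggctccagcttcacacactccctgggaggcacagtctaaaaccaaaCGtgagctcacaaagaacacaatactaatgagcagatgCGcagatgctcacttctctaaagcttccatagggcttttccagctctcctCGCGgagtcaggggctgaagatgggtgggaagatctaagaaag
WNT10A (chr2:219744624-219744873, plus strand): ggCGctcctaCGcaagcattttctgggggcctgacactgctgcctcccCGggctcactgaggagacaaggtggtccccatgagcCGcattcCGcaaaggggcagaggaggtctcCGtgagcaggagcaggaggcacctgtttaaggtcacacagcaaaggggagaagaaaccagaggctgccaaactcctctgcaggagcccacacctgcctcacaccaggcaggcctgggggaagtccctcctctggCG
WNT8B (chr10:102221846-102222095, plus strand): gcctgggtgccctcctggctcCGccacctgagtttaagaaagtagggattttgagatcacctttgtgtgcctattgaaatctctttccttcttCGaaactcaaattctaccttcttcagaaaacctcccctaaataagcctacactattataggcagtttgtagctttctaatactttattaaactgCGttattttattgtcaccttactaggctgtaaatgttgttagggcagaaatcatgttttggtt
WNT5A-205 (chr3:55515422-55515671, minus strand): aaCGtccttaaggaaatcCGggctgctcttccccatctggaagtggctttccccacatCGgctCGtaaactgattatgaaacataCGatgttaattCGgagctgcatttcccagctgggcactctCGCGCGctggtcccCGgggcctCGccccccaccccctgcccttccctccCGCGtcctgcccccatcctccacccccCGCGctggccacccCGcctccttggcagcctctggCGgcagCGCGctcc
The DKK2 stretch went from 3.33% ± 5.77 to 36.6% ± 10.2 over 6 CpGs, and the WNT10A stretch from 5.68% ± 2.39 to 35.4% ± 19.2 over 7. At WNT8B 3 CpGs went from 95.6% ± 4.55 to 24.1% ± 13.1. The WNT5A stretch held 19 CpGs and went from 0.741% ± 1.28 to 37.7% ± 2.15. The stretch of WNT5A held the most CpGs of the 4 and had the smallest SD in Reset cells.

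At the promoters of the 47 genes, changes went both ways. In Reset cells 14 promoters were lower, where the share among all 19293 promoters tested was 67.4%, and 8 were higher, where the share among all promoters was 3.98%. The median difference was -0.17 points, against -9.59 points over all promoters. In Conventional cells 29 of 47 promoters were under 5%, as were 5142 of all 19293, and 43 of 47 overlapped a CpG-dense stretch, here any run of 500-bp windows in which G and C made up 55% or more of the bases and CpGs reached 0.65 of the number that the base content predicts. Of those 43 promoters 12 were lower and 8 were higher, beside 58.3% and 4.93% of all promoters that overlap such a stretch. The groups did not overlap in 14 promoters with Reset libraries below and in 9 with Reset libraries above, and the shares over all promoters were 69% and 4.63%. Among the 40 promoters under 20% in Conventional cells 8 were higher, beside 6.55% of all such promoters. Outside dense stretches 2 of 4 promoters were lower, beside 93.4% of all such promoters. The counts depended on the flank. With the promoter cut to 500 bp on each side of the TSS, 2 promoters were lower (WNT8B and FZD9), beside 39.6% of all promoters with these bounds, and 6 were higher (WNT5B, WNT10A, DKK2, SFRP1, SFRP2 and SFRP5), beside 4.4%. The WNT8A difference was -26.2 points within these bounds, with an adjusted p of 0.0516. From 2000 bp upstream to 500 bp downstream 22 promoters were lower, beside 88.6% of all promoters, and 12 were higher, beside 2.43%.

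**Figure D1:**
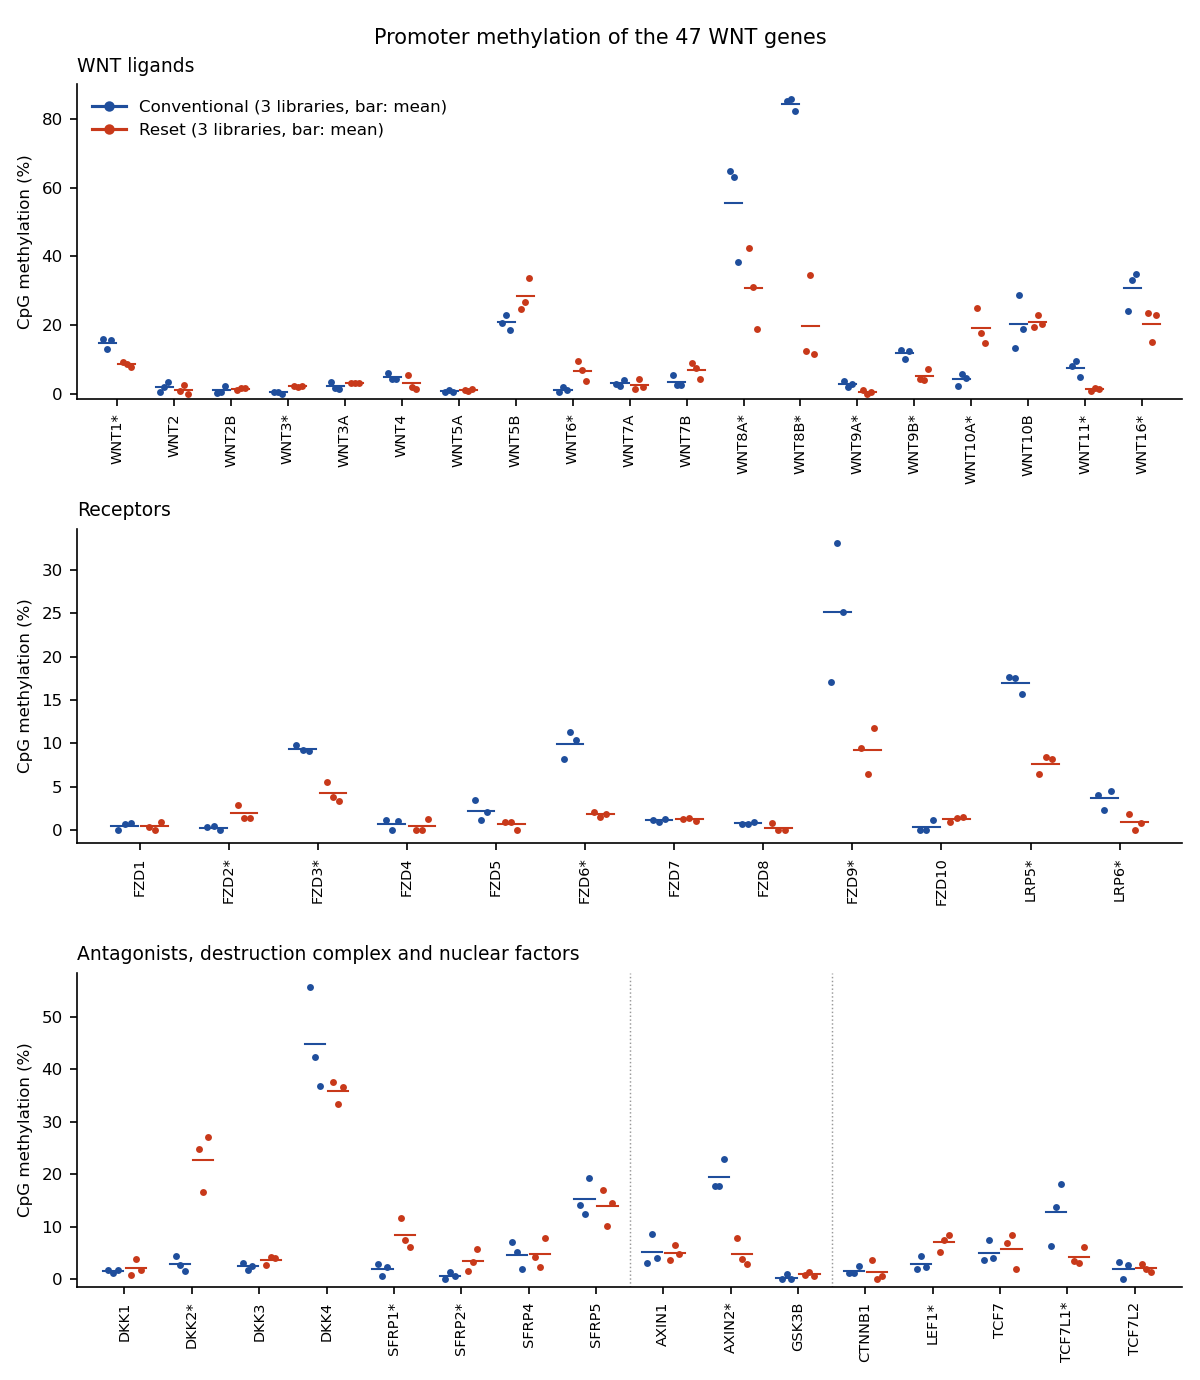
CpG methylation (%) of the promoter of each of the 47 genes in the 6 libraries, with 1 point per library, a bar at each group mean and an asterisk where the adjusted p was at most 0.05. Most promoters sit near 0 in both groups, DKK2 and WNT10A stand above their Conventional points by 19.9 and 15.04 points, and WNT8B stands below by 64.8.

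Among the ligands 7 of 19 promoters were lower and 3 were higher, beside 67.4% and 3.98% of all promoters. WNT8B, one of the WNT8 ligands linked to forebrain development, had the largest fall. Its promoter (TSS at chr10:102222766, 11 CpGs, outside dense stretches) was at 85.1%, 85.7% and 82.4% in the Conventional libraries and at 12.5%, 34.6% and 11.5% in the Reset libraries. The groups lay far apart, though Reset replicate 2 was well above the other Reset libraries, and the fall was 64.8 points (adjusted p = 8.97e-06). WNT8A, its paralogue in the early embryo, also has a CpG-poor promoter (TSS at chr5:137419722, 12 CpGs). It was at 64.7%, 62.96% and 38.5% in Conventional and 42.3%, 30.95% and 18.8% in Reset libraries, and Conventional replicate 3 fell within the range of the Reset libraries. The difference of -24.7 points passed the threshold (adjusted p = 0.0247), but without Conventional replicate 1 or 2 or Reset replicate 2 or 3 the adjusted p rose to between 0.0599 and 0.109.

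WNT10A, a ligand of ectodermal organs such as teeth and hair, had the largest rise among the ligands, except within 500 bp of the TSS, where WNT5B rose by 20.3 and WNT10A by 12.8 points. Its promoter (TSS at chr2:219745574, 90 CpGs) was at 2.13%, 5.59% and 4.68% in Conventional and 25%, 17.7% and 14.8% in Reset libraries. Every Reset library was above the Conventional ones, and the mean went from 4.13% ± 1.80 to 19.2% ± 5.25 (adjusted p = 9.07e-05). WNT6, which lies 21.0 kb upstream on the same strand, was also higher, from 1.17% ± 0.778 to 6.73% ± 3.04 (adjusted p = 0.00381). WNT3, a ligand of gastrulation, rose from 0.341% ± 0.299 to 2.08% ± 0.0486 (adjusted p = 0.0121), a difference of 1.74 points that lost its call without Conventional replicate 3.

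WNT16 was at 24.2%, 33.2% and 34.8% in Conventional and 23.3%, 15.04% and 22.9% in Reset libraries. The groups did not overlap, and the fall of 10.3 points had an adjusted p of 0.0338, which rose to between 0.0855 and 0.172 without Conventional replicate 2 or 3 or Reset replicate 2 and was 0.0732 by edgeR. Within 500 bp of the TSS the WNT16 difference was -0.76 points (adjusted p = 0.857). The other lower ligands were WNT1 (from 14.9% ± 1.58 to 8.53% ± 0.816), WNT9A (from 2.84% ± 0.889 to 0.586% ± 0.592), WNT9B (from 11.7% ± 1.41 to 5.14% ± 1.76) and WNT11 (from 7.46% ± 2.39 to 1.29% ± 0.414), all below 15% in Conventional cells. WNT1 was not called by edgeR (adjusted p = 0.0625), and WNT9A lost its call without Reset replicate 2 (adjusted p = 0.0613). None of these ligands passed the threshold within 500 bp of the TSS. WNT5B, a ligand of the β-catenin-independent branch, was at 20.6%, 23.01% and 18.6% in Conventional and 24.6%, 26.6% and 33.7% in Reset libraries. Its groups did not overlap, but the difference of 7.55 points did not pass the threshold (adjusted p = 0.115), whereas within 500 bp of the TSS it was 20.3 points (adjusted p = 0.000332). Of 4 pairs of ligands that neighbour each other, WNT6 and WNT10A were both higher, WNT3 was higher with WNT9B lower at a distance of 32.9 kb, and in the pairs of WNT1 with WNT10B (6.59 kb) and WNT9A with WNT3A (59.1 kb) the first was lower and the second did not pass the threshold.

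Among the receptors 5 of 12 promoters were lower and 1 was higher, beside 67.4% and 3.98% of all promoters. FZD9, a frizzled receptor gene in the region deleted in Williams syndrome, had the largest fall (TSS at chr7:72848108), though from 2000 bp upstream the difference was -24.03 points at FZD6, -21.2 at LRP6 and -18.3 at FZD9. It was at 17.1%, 33.1% and 25.2% in Conventional and 9.42%, 6.49% and 11.8% in Reset libraries. The Conventional libraries were spread widely but stayed above every Reset library, and the mean fell by 15.9 points (adjusted p = 8.80e-04). The co-receptors LRP5 (from 16.97% ± 1.12 to 7.65% ± 1.09) and LRP6 (from 3.63% ± 1.13 to 0.889% ± 0.928) were lower, as were FZD3 (from 9.35% ± 0.362 to 4.25% ± 1.17) and FZD6 (from 9.95% ± 1.62 to 1.82% ± 0.285). LRP6 lost its call without Reset replicate 2 (adjusted p = 0.0759) and within 500 bp of the TSS, where its difference was 0.0898 points. Within these bounds LRP5 (-0.24 points, adjusted p = 0.974), FZD3 (-0.72 points, adjusted p = 0.337) and FZD6 (-2.11 points, adjusted p = 0.0939) lost their calls as well. FZD2 was higher by 1.63 points from a level of 0.275% (adjusted p = 0.0218), and lost that call without Conventional replicate 3 or Reset replicate 1. From 2000 bp upstream the FZD2 difference was -0.28 points (adjusted p = 0.873). The promoters of FZD1, FZD4, FZD5, FZD7, FZD8 and FZD10 did not pass the threshold and had means under 3% in both groups. The call was gained at FZD10 without Conventional replicate 3 (1.27 points, adjusted p = 0.013) and at FZD5 without Conventional replicate 2 (-2.14 points, adjusted p = 0.0443). With 2000 bp upstream FZD5 (-11.7 points, adjusted p = 2.23e-05) and FZD4 (-5.42 points, adjusted p = 0.0140) were lower, and FZD10 was higher (1.56 points, adjusted p = 0.0374).

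Of the 8 antagonist promoters 3 were higher and none was lower by the quasi-binomial test, at an unadjusted p under 0.05 (0 of 8), by edgeR (0 of 8) or by Fisher's exact test (0 of 8), where 67.4% of all promoters were lower and 3.98% higher. Of the 8 promoters 6 were under 5% in Conventional cells. With the promoter taken from 2000 bp upstream, DKK4 (-18.8 points, adjusted p = 0.0029) and SFRP4 (-4.37 points, adjusted p = 0.0404) were lower. DKK2, a secreted ligand of LRP5 and LRP6, had the largest rise of all 47 promoters (TSS at chr4:107957470, 65 CpGs), though from 2000 bp upstream its rise was 9.35 points and that of WNT10A 18.02. It was at 4.46%, 2.63% and 1.64% in Conventional and 24.8%, 16.5% and 27.03% in Reset libraries. All Reset libraries were above 16% and all Conventional libraries below 5%, and the rise was 19.9 points (adjusted p = 1.55e-05). The frizzled-related proteins SFRP1 and SFRP2, which bind WNT proteins outside the cell, rose from 1.98% ± 1.18 to 8.35% ± 2.86 (adjusted p = 0.00156) and from 0.624% ± 0.656 to 3.52% ± 2.09 (adjusted p = 0.0221). The call of SFRP2 was lost without Conventional replicate 1 or Reset replicate 3. DKK1, the best known inhibitor of LRP6 and itself a target of the pathway, was at 1.54% ± 0.269 and 2.19% ± 1.54 (adjusted p = 0.449). DKK4 was at 44.8% ± 9.67 in Conventional and 35.8% ± 2.20 in Reset cells with overlapping groups (adjusted p = 0.199).

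In the destruction complex the promoter of AXIN2 was lower. This axin gene is induced by β-catenin and limits the pathway in turn. Its promoter (TSS at chr17:63557766, 115 CpGs) was at 17.6%, 17.7% and 22.9% in Conventional and 7.83%, 3.76% and 2.86% in Reset libraries. Every Conventional library was more than 9 points above every Reset library, and the fall was 14.6 points (adjusted p = 3.21e-05). The fall lay upstream: within 500 bp of the TSS the difference was -1.47 points and did not pass the threshold (adjusted p = 0.133). GSK3B, the kinase that CHIR99021 inhibits, was at 0.312% ± 0.541 in Conventional and 0.945% ± 0.411 in Reset cells (adjusted p = 0.305), a difference that passed the threshold without Conventional replicate 2 (adjusted p = 0.0401). AXIN1 was at 5.23% ± 2.97 and 5.00% ± 1.38, and its groups overlapped.

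Among the nuclear factors LEF1 was higher and TCF7L1 was lower. LEF1, often induced by the pathway, was at 1.90%, 4.35% and 2.37% in Conventional and 5.11%, 7.53% and 8.33% in Reset libraries. All Reset libraries were above the Conventional ones, and the rise of 4.12 points (adjusted p = 0.0240) lost its call when any of Conventional replicates 1 and 3 and Reset replicates 2 and 3 was left out, with an adjusted p of 0.0577 to 0.0977. TCF7L1 was at 6.30%, 13.7% and 18.2% in Conventional and 3.44%, 3.05% and 6.03% in Reset libraries. Conventional replicate 1 came within 1 point of the highest Reset library without overlap, and the fall was 8.56 points (adjusted p = 0.00402). Within 500 bp of the TSS neither gene passed the threshold, with 0.573 points at LEF1 (adjusted p = 0.574) and -2.29 points at TCF7L1 (adjusted p = 0.225). CTNNB1, the gene of β-catenin, was at 1.61% ± 0.789 and 1.44% ± 1.95 (adjusted p = 0.757). TCF7 was at 5.03% ± 2.10 and 5.76% ± 3.36 (adjusted p = 0.721), and TCF7L2 was close to 2% in both groups. With 2000 bp upstream the difference was -12.6 points at CTNNB1 (adjusted p = 2.82e-05) and -7.70 at TCF7L2 (adjusted p = 0.00358).

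Around the start sites the 5 classes had a minimum of methylation in both kinds of cells. In bins of 500 bp averaged over genes, receptors were at 1.78% ± 0.950 in Conventional and 0.936% ± 0.189 in Reset cells in the first bin downstream of the TSS, where all genes averaged 22.8% ± 0.192 and 9.86% ± 0.189. Away from the TSS the lines moved apart, and at 4 to 4.5 kb upstream the ligands were at 69.3% ± 3.66 and 32.8% ± 3.80. Of the 5 classes the antagonists alone were higher in Reset cells on both sides of the TSS, at 6.65% ± 2.08 and 10.8% ± 1.05 in the 500 bp upstream and 4.28% ± 0.525 and 10.5% ± 3.07 in the 500 bp downstream. Over both sides together DKK2 was higher by 22.3 points and the other antagonists by 0.477 to 6.91 points. At 2 to 2.5 kb downstream the classes were spread widely in Conventional cells, with nuclear factors at 22.97% ± 1.76, the destruction complex at 34.7% ± 2.17, receptors at 35.4% ± 1.52, ligands at 52.3% ± 1.61 and antagonists at 64.4% ± 2.09, against 81.2% ± 0.0757 for all genes. These class means are descriptions without a test, since genes of a class are not replicates.

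**Figure D2:**
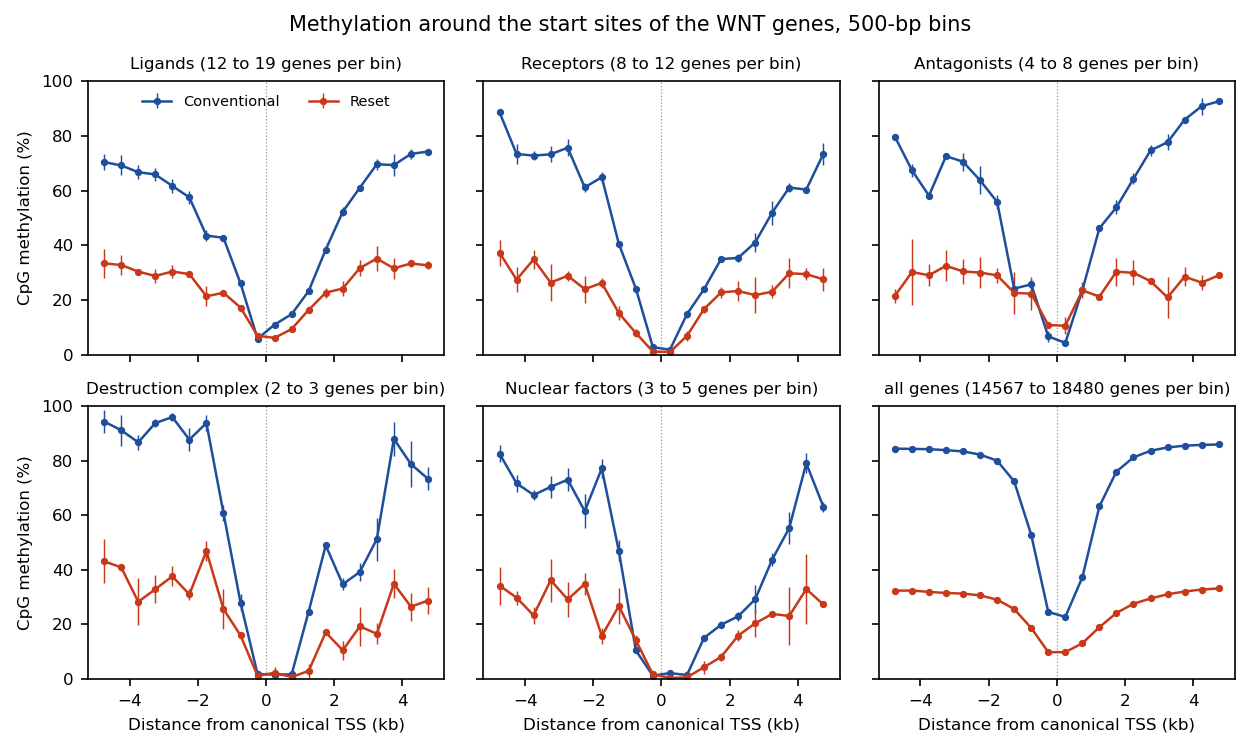
CpG methylation (%) in 500-bp bins against the distance (kb) from the canonical TSS for each class of WNT gene and for all genes, with lines at the mean of the 3 Conventional and of the 3 Reset libraries and error bars of 1 SD. Both lines meet near 0 at the TSS in receptors, destruction complex and nuclear factors, and in the antagonists the Reset line crosses above the Conventional one at the TSS.

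Gene bodies were mostly lower in Reset cells. Of 47 bodies 40 were lower (85.1%), where the share over all 19148 bodies was 97.8%, and 4 were higher (8.51%), where the share was 1.15%. The median difference was -42.3 points, against -51.2 points over all bodies. Among the 7 bodies under 20% in Conventional cells 4 were higher, beside 44.3% of all such bodies. The rises were all in receptors, of which 7 were lower, 4 were higher and 1 did not pass the threshold. All 8 antagonist bodies, all 3 of the destruction complex and all 5 of the nuclear factors were lower, and so were 17 of 19 ligand bodies. Across the 47 bodies the difference went with the share of CpGs that lie in dense stretches (Spearman's rho of 0.77, Pearson's r of 0.83), a description of genes in the same libraries. The Conventional level, which limits how far a body can fall, was not taken into account. Calls in Reset relative to Conventional cells, each as a share of the library, ranged from 0.85 for DKK1 to 1.47 for FZD5.

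**Figure D3:**
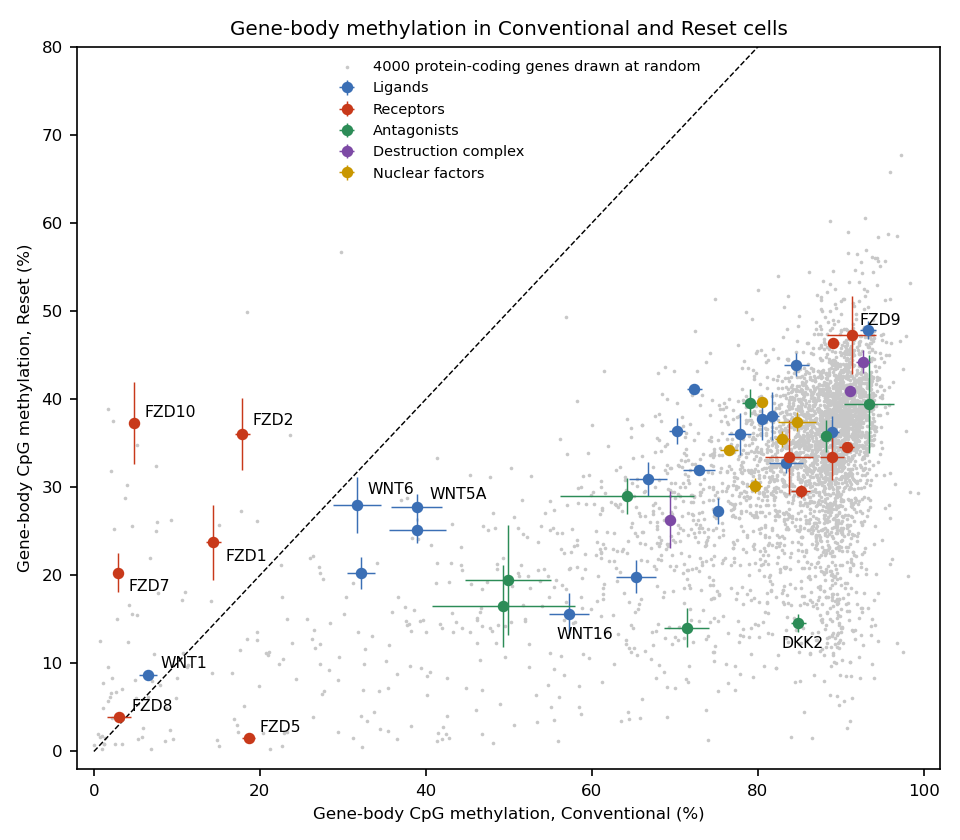
Gene-body CpG methylation (%) in Reset against Conventional cells, with coloured points and error bars for the mean and SD of 3 libraries of each WNT gene, grey points for 4000 genes drawn at random and a dashed line of equal levels. FZD10, FZD2, FZD7 and FZD1 stand above the line at Reset levels of 37.3%, 36.1%, 20.3% and 23.7%, and most other WNT genes lie below it among the grey points.

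DKK2 had the largest fall of a gene body among the 47, although its promoter had the largest rise. Its body was at 83.9%, 85.8% and 84.9% in Conventional and 13.4%, 14.97% and 15.3% in Reset libraries. No library departed from its group by more than 2 points, and the fall was 70.3 points (adjusted p = 2.70e-26). The smallest fall among the antagonists was that of DKK1, from 49.9% ± 5.14 to 19.5% ± 6.26 over 49 CpGs (adjusted p = 9.32e-07). In the destruction complex GSK3B fell most, from 91.1% ± 0.591 to 40.9% ± 0.362, and AXIN2 least, from 69.4% ± 0.272 to 26.3% ± 3.22. LEF1 fell most among the nuclear factors, from 79.7% ± 0.899 to 30.2% ± 0.835, and TCF7L2 least, from 80.6% ± 0.457 to 39.7% ± 0.106. The bodies of TCF7 (from 84.7% ± 2.23 to 37.5% ± 1.12), TCF7L1 (from 82.96% ± 0.924 to 35.5% ± 0.881) and CTNNB1 (from 76.5% ± 1.05 to 34.2% ± 0.572) lay between them, and the adjusted p of these 5 nuclear factors was at most 5.10e-19.

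Among the ligand bodies WNT2, known from lung and placenta development, fell most, from 88.97% ± 0.860 to 36.3% ± 1.77 (adjusted p = 6.36e-22). WNT1, the founding member of the family, had an almost unmethylated body, at 5.45%, 7.58% and 6.53% in Conventional and 9.16%, 8.51% and 8.54% in Reset libraries. The Reset libraries lay above the Conventional ones, but the difference of 2.22 points did not pass the threshold (adjusted p = 0.0536), and it did so without Conventional replicate 2 (adjusted p = 0.0347) and by edgeR (adjusted p = 0.0383). The coding part of WNT1 went from 2.35% ± 0.330 to 5.57% ± 2.31 and its 3′ UTR from 30.4% ± 0.921 to 15.5% ± 4.49, and body CpGs outside dense stretches fell by 38.8 points (adjusted p = 4.81e-05). The body of WNT6 was at 31.7% ± 2.92 and 28.01% ± 3.17 with overlapping groups (adjusted p = 0.0702), a call that was gained without Conventional replicate 2 (adjusted p = 0.0121), without Reset replicate 1 (adjusted p = 0.0199) and with the replicate numbers as a block (adjusted p = 0.0372). The bodies of WNT5A (-11.2 points), WNT10A (-13.8 points) and WNT10B (-11.9 points) also fell by less than 15 points, from Conventional levels of 32.2 to 39.0%.

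The rises in gene bodies were all in frizzled genes without introns. All were from levels under 20% in Conventional cells, where 4 of 7 member bodies and 44.3% of all bodies were higher. Of the 10 genes 6 have a single exon in the canonical transcript, and among these FZD10, FZD2, FZD7 and FZD1 had higher bodies in Reset cells. FZD10 was at 4.47%, 4.56% and 5.50% in Conventional and 38.2%, 41.5% and 32.2% in Reset libraries. The groups were more than 26 points apart, and the rise of 32.5 points was the largest of the 47 bodies (adjusted p = 1.30e-12). FZD2 was at 17.1%, 18.9% and 17.7% and 31.5%, 39.2% and 37.6%, a rise of 18.2 points (adjusted p = 3.51e-08). FZD7 was at 2.85%, 3.58% and 2.46% and 21.8%, 21.3% and 17.8%, a rise of 17.4 points (adjusted p = 1.04e-11). FZD1 was at 15.4%, 13.7% and 14.1% and 21.99%, 28.5% and 20.7%, a rise of 9.33 points (adjusted p = 1.16e-04). In each of these 4 genes, which encode receptors that span the membrane and bind WNT proteins, all Reset libraries were above all Conventional ones.

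Coding sequence was higher in all 4 genes, and the 3′ UTR was higher by more than 15 points in FZD7 and FZD10. Between the end of the promoter and the stop codon FZD10 went from 4.49% ± 0.609 to 38.6% ± 4.29, FZD2 from 13.1% ± 2.34 to 35.5% ± 5.12, FZD7 from 1.34% ± 1.62 to 20.6% ± 4.34 and FZD1 from 4.30% ± 0.845 to 19.5% ± 2.77. In the 3′ UTR FZD7 went from 8.82% ± 2.49 to 34.9% ± 7.96 and FZD10 from 7.83% ± 0.779 to 24.3% ± 7.04, whereas FZD2 (from 29.1% ± 5.98 to 37.4% ± 3.67) and FZD1 (from 27.4% ± 1.86 to 29.95% ± 5.31) differed by less. The start sites of all 4 stayed near 0: in the 500 bp downstream of the TSS FZD10 was at 0.285% ± 0.493 and 0.756% ± 0.659, and at 1 to 1.5 kb downstream it was at 4.57% ± 3.06 and 48.8% ± 5.24. At FZD7 the step came later, and the bin at 2 to 2.5 kb went from 1.32% ± 1.59 to 50.5% ± 4.28. Dense stretches held 85.2 to 97.2% of the body CpGs of FZD1, FZD2, FZD5, FZD7, FZD8, FZD9 and FZD10. The remaining body CpGs rose in FZD7 by 24.9 points (adjusted p = 2.86e-08) and in FZD10 by 19.3 points (adjusted p = 0.00475), were -3.39 points apart in FZD2 (adjusted p = 0.568) and fell by 34.4 points in FZD1 (adjusted p = 2.11e-09).

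The other two single-exon frizzled genes took other courses. The body of FZD8 was at 1.71%, 4.62% and 2.69% in Conventional and 3.42%, 4.33% and 3.89% in Reset libraries, with overlapping groups (adjusted p = 0.333). FZD9 was already methylated, at 88.4%, 94.4% and 91.2%, and was at 43.02%, 47.1% and 51.8% in Reset libraries, a difference of -44.02 points (adjusted p = 8.31e-13). FZD5, whose coding sequence lies in 1 of 2 exons, was at 18.4%, 18.03% and 19.5% in Conventional and 1.77%, 1.27% and 1.59% in Reset libraries. Its groups were more than 16 points apart, it had the lowest level of all 47 bodies in Reset cells (adjusted p = 3.11e-13), and its calls as a share of the library were 1.47 times as many in Reset cells, whose part in the result was not tested. The largest receptor fall was that of LRP6, from 90.7% ± 0.895 to 34.6% ± 0.513 (adjusted p = 8.88e-28), and FZD3, FZD4, FZD6 and LRP5 fell by 42.7 to 55.6 points.

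**Figure D4:**
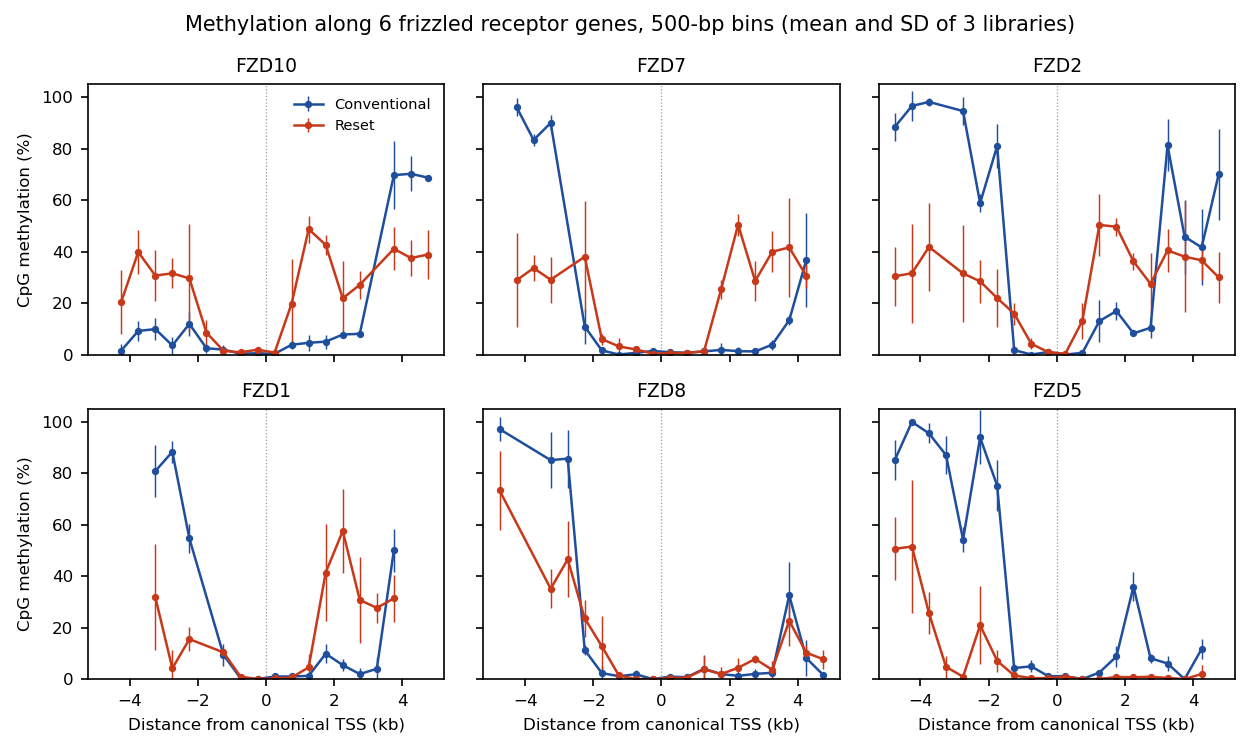
CpG methylation (%) in 500-bp bins against the distance (kb) from the canonical TSS of 6 frizzled genes, with lines at the mean of the 3 Conventional and of the 3 Reset libraries and error bars of 1 SD. In FZD10, FZD7, FZD2 and FZD1 the Reset line rises 1 to 2.5 kb downstream of an unmethylated start site where the Conventional line stays under 20%, in FZD8 both lines stay under 10% up to 3.5 kb downstream, and in FZD5 the Conventional peak downstream is absent from Reset cells.

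Alternative promoters, at start sites of other protein-coding transcripts more than 1500 bp from the canonical TSS, also moved in both directions. Of 20 alternative promoters of 12 WNT genes 10 were lower, where the share over 7092 alternative promoters was 86.8%, and 5 were higher, where the share was 3.65%. Among 9 alternative promoters under 20% in Conventional cells 4 were higher, beside 18.9% of all such promoters. The largest rise was at WNT5A-205, which starts inside the gene, 5913 bp downstream of the canonical TSS (chr3:55515421, GRCh37). WNT5A is the main ligand of the β-catenin-independent branch. This promoter was at 1.75%, 0.917% and 0.735% in Conventional and 39.1%, 41.1% and 25.4% in Reset libraries. Every Conventional library was under 2% and every Reset library above 25%, and the rise was 34.1 points (adjusted p = 3.21e-12). The canonical WNT5A promoter was at 0.716% ± 0.222 and 1.02% ± 0.302 (adjusted p = 0.597).

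SFRP1-202, in an intron of SFRP1, was at 6.38%, 2.88% and 7.06% in Conventional and 29.1%, 29.2% and 37.8% in Reset libraries, a rise of 26.6 points without overlap (adjusted p = 3.12e-07). WNT5B-206, which starts 2084 bp downstream of the canonical TSS, rose from 6.44% ± 0.576 to 26.2% ± 7.60 (adjusted p = 7.95e-07), while both WNT5B starts upstream of the canonical TSS fell, WNT5B-203 from 94.6% ± 2.71 to 45.7% ± 4.51 and WNT5B-201 from 82.7% ± 2.05 to 32.9% ± 4.61. LEF1-218 rose from 4.85% ± 4.07 to 17% ± 1.97 and WNT7B-202 from 26.7% ± 0.253 to 37.8% ± 3.06. All 5 rising starts lay downstream of the canonical TSS.

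The largest falls at alternative promoters were at CTNNB1. CTNNB1-226, which starts upstream of the canonical TSS, was at 90.4%, 97.2% and 94.6% in Conventional and 21.7%, 25.9% and 12.7% in Reset libraries, and CTNNB1-241 was at 100%, 100% and 92.3% and 33.3%, 22.5% and 31.8%. Both groups of both starts were far apart, with falls of 73.9 (adjusted p = 5.59e-12) and 68.2 points (adjusted p = 5.71e-09), and CTNNB1-241 rested on 7 CpGs. DKK2-204 (from 72.4% ± 5.67 to 16.4% ± 12.4), WNT2B-203 (from 56.9% ± 3.99 to 9.09% ± 3.80), WNT2B-201 (from 33.99% ± 0.618 to 7.05% ± 3.26), WNT16-202 (from 91.4% ± 3.71 to 54.7% ± 11.2) and TCF7L2-203 (from 69.7% ± 2.96 to 39.6% ± 4.24) fell as well. DKK2-204 rested on 5 CpGs, with 12 calls in its lowest library. AXIN2-202 was lower with overlapping groups, from 11.5% ± 5.56 to 4.30% ± 4.05 (adjusted p = 0.00597). An upstream start of WNT3, WNT3-208, was at 55.6% ± 8.81 and 50.9% ± 6.30 and did not pass the threshold (adjusted p = 0.219).

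**Figure D5:**
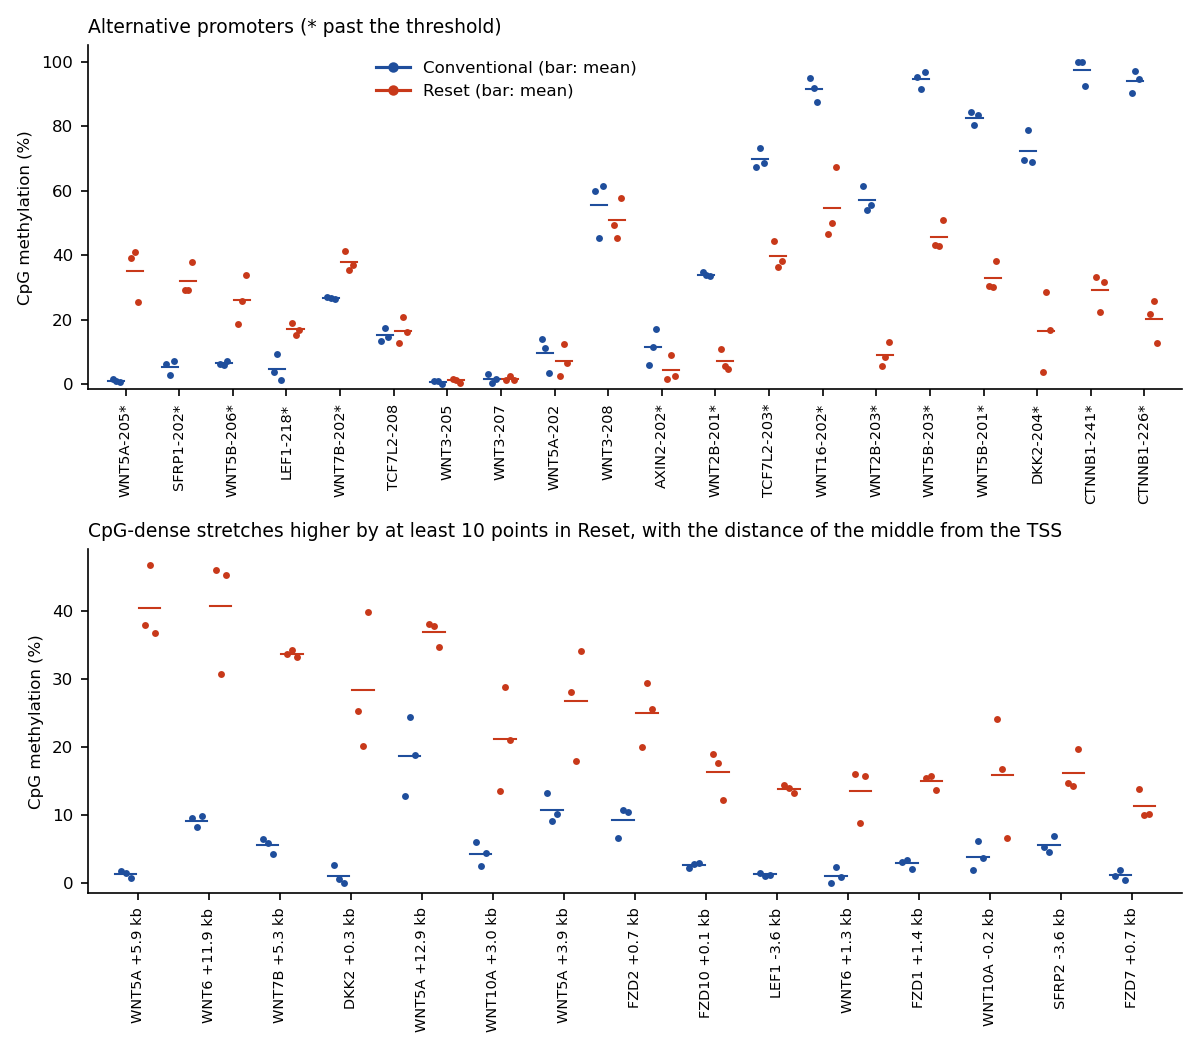
CpG methylation (%) in the 6 libraries at the 20 alternative promoters of WNT genes (upper panel) and at the CpG-dense stretches that were higher by at least 10 points in Reset cells (lower panel), with 1 point per library and a bar at each group mean. The lower panel was limited to stretches past the threshold in which every Reset library was above every Conventional one. The highest Reset means there were at WNT6 (40.7%) and WNT5A (40.5%).

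Of 108 CpG-dense stretches in or within 5 kb of the 47 genes 39 were lower, where the share over 33950 stretches was 61.6%, and 29 in 19 genes were higher, where the share was 8.57%. Among the 76 stretches under 20% in Conventional cells 29 were higher, beside 16.9% of all such stretches. By class, 17 of 52 stretches of ligands, 4 of 26 of receptors, 7 of 12 of antagonists and 1 of 9 of nuclear factors were higher. The 4 rises of at least 20 points were inside genes, away from or spanning the start site. The largest was in an intron of WNT5A (chr3:55514947-55515885, 49 CpGs), which overlaps the WNT5A-205 promoter described above and was at 1.80%, 1.46% and 0.671% in Conventional and 37.97%, 46.8% and 36.8% in Reset libraries. The rise was 39.2 points with no overlap (adjusted p = 6.68e-07).

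A stretch over a coding exon and intron of WNT6 (chr2:219735971-219736962, 63 CpGs) was at 9.48%, 8.14% and 9.81% in Conventional and 46.03%, 30.8% and 45.3% in Reset libraries. WNT7B, a ligand of lung and kidney development, rose in an intronic stretch of 203 CpGs (chr22:46366599-46368863), from 6.46%, 5.92% and 4.29% to 33.6%, 34.3% and 33.3%. The Reset libraries of WNT7B were within 1 point of each other, and the adjusted p was 9.56e-08. The DKK2 stretch (chr4:107956517-107957823, 70 CpGs) spans the first exon and was at 2.63%, 0.526% and 0% in Conventional and 25.3%, 20.2% and 39.8% in Reset libraries (adjusted p = 2.04e-05). All 4 of these stretches were picked among those whose groups did not overlap.

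The falls of dense stretches were larger. A stretch of 36 CpGs centred 3.91 kb upstream of TCF7L1 (chr2:85356299-85356920) was at 95.4%, 87.1% and 87.3% in Conventional and 6.06%, 1.85% and 5.00% in Reset libraries, a fall of 85.6 points (adjusted p = 1.19e-07). Another upstream of LRP6 (chr12:12424171-12424754) went from 94.8% ± 4.53 to 13.4% ± 6.70, and one over coding sequence of WNT3 (chr17:44846853-44847711) from 94.7% ± 1.70 to 20.6% ± 10.7. An intronic stretch of AXIN1 (chr16:374184-375535) went from 88.9% ± 1.70 to 23.5% ± 2.84, and one downstream of GSK3B (chr3:119539335-119539867) from 92.6% ± 0.797 to 30.1% ± 6.75. The group means of these stretches were above 88% in Conventional cells, unlike those of the dense stretches at the start sites.

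In windows of 1 kb the rises were rarer. Of 2770 windows in or within 5 kb of the 47 genes 2549 were lower, where the share over 2060730 windows was 98.3%, and 84 in 27 genes were higher, where the share was 0.421%. Nearly all of these were poorly methylated to begin with: 82 of the 198 windows under 20% in Conventional cells were higher, beside 23.9% of all such windows. The window with the largest rise covered coding sequence of FZD10 (chr12:130648001-130649000), at 5.02%, 4.33% and 4.71% in Conventional and 46.4%, 44.4% and 46.2% in Reset libraries, a rise of 40.97 points (adjusted p = 1.65e-47). Its groups lay far apart and each was tight. A window centred 1.51 kb upstream of SFRP1 (chr8:41168001-41169000) rose from 3.00% ± 2.21 to 41.8% ± 3.59, one in FZD7 (chr2:202900001-202901000) from 1.93% ± 2.45 to 37.96% ± 4.56 and one in WNT5B (chr12:1740001-1741000) from 11.3% ± 0.737 to 45.8% ± 18.1. Adjoining windows in FZD1 (chr7:90895001-90896000, from 8.31% ± 2.84 to 38.5% ± 9.52, and chr7:90896001-90897000, from 2.74% ± 3.58 to 36.6% ± 8.91) and a window in FZD2 (chr17:42636001-42637000, from 16.3% ± 2.07 to 49.03% ± 2.33) rose by more than 30 points as well, and the windows of WNT5A, WNT6 and WNT7B among the 10 largest rises fall on the dense stretches given above.

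Windows that stayed methylated were few. Of the 2483 windows with a Conventional level of 50% or more, 10 retained 80% of it or more in Reset cells, beside 0.147% of all such windows. They lay at WNT3 and WNT9B (1 window shared by both), WNT4, WNT5B, WNT7B, WNT9A, WNT10A and SFRP1. Of the 10 windows 3 were at WNT7B, and one of them (chr22:46363001-46364000) was at 58.1%, 47.1% and 69.6% in Conventional and 65.3%, 48.9% and 50% in Reset libraries. Its groups overlapped, and the window was named after its values were seen.

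Other genes of the pathway, 57 in number, were read from the same fits, without other bounds, other tests or a library left out. Their promoters were lower in 25 and higher in 5, where the shares over all promoters were 67.4% and 3.98%, with a median difference of -2.04 points. Their bodies were lower in 57 of 57, where the share over all bodies was 97.8%. The largest promoter rise was at FRZB, a secreted frizzled-related protein, at 3.09%, 4.62% and 4.32% in Conventional and 25%, 32.5% and 35.9% in Reset libraries. All Reset libraries of FRZB were above 24%, and the rise of 27.1 points (adjusted p = 8.15e-07) was larger than that of DKK2. RSPO4, one of the R-spondins that strengthen WNT signals, rose from 12.96% ± 3.82 to 28.7% ± 6.10, VANGL2, of the planar polarity branch, from 3.24% ± 1.75 to 15.04% ± 6.29, the membrane antagonist APCDD1 from 3.88% ± 1.60 to 13.6% ± 4.08 and WLS, which carries WNT proteins to the cell surface, from 0.710% ± 0.807 to 3.70% ± 1.48. PORCN, the acyltransferase that all WNT ligands need for secretion, lies on the X chromosome and fell from 50.5% ± 4.21 to 0.680% ± 0.720 (adjusted p = 1.04e-08). For the X chromosome as a whole, the paper reports a reduction of intermediate methylation at CpG islands in reset cells. The share of all X promoters that fell was not computed here. AMER1, also on X, fell from 45.8% ± 8.32 to 4.61% ± 2.65, the LRP antagonist SOST from 88.99% ± 2.87 to 28.01% ± 3.24 and its relative SOSTDC1 from 71.5% ± 0.697 to 23.1% ± 7.32. The receptor LGR4 (from 13.5% ± 4.38 to 0.598% ± 0.256), the ligase RNF43 (from 16.5% ± 2.99 to 3.11% ± 3.57) and the dishevelled genes DVL2 (from 13.02% ± 2.35 to 2.75% ± 1.41) and DVL3 (from 22.8% ± 1.57 to 4.94% ± 2.40) were lower as well.

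Of 13 genes known as WNT targets, leaving aside AXIN2 and LEF1, 4 promoters were lower and 2 were higher, beside the same 67.4% and 3.98% of all promoters. MSGN1, a gene of the presomitic mesoderm, fell from 92.99% ± 1.87 to 53.5% ± 10.8 (adjusted p = 2.73e-05), TNFRSF19 from 64.6% ± 1.89 to 29.6% ± 11.4, MIXL1 from 16.5% ± 4.16 to 7.44% ± 1.85 and CDX1 from 14.6% ± 4.45 to 6.24% ± 3.77. The mesendoderm regulators EOMES and TBXT rose, EOMES from 1.23% ± 0.709 to 5.40% ± 1.44 and TBXT from 0.477% ± 0.415 to 2.25% ± 1.09 (adjusted p = 0.0334). Calls of the target genes were likewise not checked with other bounds, other tests or a library left out. Bodies were lower in 10 and higher in 2, beside 97.8% and 1.15% of all bodies. Of the 3 target bodies under 20% in Conventional cells 2 were higher, beside 44.3% of all such bodies. SP5, a transcription factor that is a direct target in many tissues, was at 1.55%, 0.959% and 3.09% in Conventional and 22.5%, 16.7% and 12.2% in Reset libraries over its body. The groups were apart and the rise was 15.2 points (adjusted p = 1.92e-08), and CDX2 rose from 5.55% ± 1.04 to 10.2% ± 1.37 (adjusted p = 2.15e-04).

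The core letters bound by TCF and LEF factors, ATCAAAG read on both strands (CTTTGAT on the other), were searched for in the promoters of GRCh37. They were found in 11 of the 47 promoters (23.4%) and in 12.4% of all 19812 promoters of the same length. The 11 were WNT2, WNT5B, WNT6, WNT9B, FZD1, FZD8, DKK1, DKK4, SFRP5, AXIN2 and TCF7. A match of these letters is not a site of binding.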

How the data were processed

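Whole-genome bisulfite libraries of H9 cells were examined, 3 Conventional and 3 Reset. Per the labels and the study's methods, DNA was sonicated, ligated to methylated adaptors, treated with bisulfite and amplified. The authors used Trim Galore on the reads and then Bismark (0.9.0 in the submitters' notes, an earlier version in the study's methods) with Bowtie2 for alignment to GRCh37. Removal of duplicate reads is not given in the sources used here. The deposited columns hold, for every CpG cytosine, raw counts of calls that were methylated and calls that were not, and the deposited percent was checked to equal their share and was not otherwise used. Positions lay at a CpG in 99.8% of cases when counted from 0, and printed coordinates are counted from 1. The study describes biological replicates, and the labels do not say whether they were separate cultures. The p-values rest on counts of calls and on a dispersion moderated over all features, so they do not measure the spread between these libraries alone. A WNT3 window (chr17:44849001-44850000) passed the threshold (adjusted p = 0.0175) at 0.766%, 0% and 0% in Conventional and 0%, 3.35% and 0% in Reset libraries. Calls without molecular identifiers are not independent molecules.

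Calls on both strands of a CpG were summed. Promoters, bodies and alternative promoters came from GENCODE release 44 mapped to GRCh37, and 37785 CpG-dense stretches were predicted from the sequence. Features of chromosomes 1 to 22 and X were kept where each library had 10 calls or more. Groups were compared by a two-sided likelihood-ratio F test of a quasi-binomial logistic fit, with dispersions squeezed by limma 3.58.1 (R 4.3.3) and kept at 1 or more, Benjamini-Hochberg adjustment over all features of a kind and a threshold of 0.05. A single value of 3 against 3 libraries cannot reach an exact permutation p below 0.1, so none was computed. The sequence of 1 promoter stretch is not reported here. The members and lists were chosen with earlier results of these data known. Named were promoters past the threshold with a change of at least 10 points, 7 core genes whatever they did, and the largest and smallest body difference in each class. Alternative promoters and dense stretches were named from those with the largest changes of at least 20 points. Dense stretches that rose by at least 20 points were added to these. Among windows the 10 largest rises were described and no falls were, although differences of windows went down to -96.7 points. Promoters had 26 to 498 calls per library. Alternatives were Fisher's exact test, edgeR 4.0.16, other minima, other bounds, equal weight per CpG, leaving out CpGs of over 50 calls, each library left out and the replicate numbers as a block.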

Additional observations from a re-analysis of the deposited data

How the results depend on the processing

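Counts of promoters that fell depended on the promoter's bounds. With 500 bp on each side of the TSS 2 member promoters were lower, and from 2000 bp upstream to 500 bp downstream 22 were lower and 12 higher (7 of the 8 that were higher from 1000 bp upstream among them), with a median difference over the 47 promoters of -4.82 points. The median itself lies near 0 and changed sign to 0.0618 points without Conventional replicate 3 (range -0.42 to 0.0618 over libraries left out). With 2000 bp upstream the difference reversed at WNT2 (5.11 points), FZD2 (-0.28), SFRP4 (-4.37) and TCF7L2 (-7.70), and with 500 bp on each side at LRP6 (0.0898) and SFRP5 (6.91). Body CpGs outside dense stretches gave 2 higher bodies, a median of -46.9 points and reversed WNT1 (-38.8), FZD1 (-34.4) and FZD2 (-3.39), the last also with bodies that started 2 kb downstream of the TSS, where the median was -46.98. Equal weight per CpG gave a median of -40.2 points. Leaving out 1 library gave 10 to 14 lower and 6 to 9 higher promoters, 40 to 41 lower and 4 to 5 higher bodies (median -42.7 to -41.6 points), 9 to 10 lower and 5 higher alternative promoters, 37 to 40 lower and 26 to 30 higher dense stretches, and 2537 to 2545 lower and 73 to 88 higher windows. Beyond the genes named with their results, WNT7B gained a promoter call without Conventional replicate 1 (4.43 points) or Reset replicate 3 (4.87), and a window of WNT6 lost its call without Reset replicate 1. The edgeR test did not call the promoters of WNT1 and WNT16. No sign of a pairing by replicate number was seen, as deviations of libraries with the same number correlated at -0.02 to 0.01 in promoters and bodies. At this depth the sampling of calls could hide a pairing, and the labels do not say whether there was one. With the replicate numbers as a block 14 promoters were lower and 9 higher, and 41 bodies were lower and 4 higher. With about 3 calls per CpG and library, changes of a few points in regions of few CpGs can go undetected.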
